A study of Mus musculus with 4 samples.

Results

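Genes of eicosanoid synthesis and breakdown were followed across 12 cell types of the mouse duodenal crypt and between 2 genotypes. They were chosen by symbol: Alox5, Alox5ap, Ltc4s, Hpgds, Ptgs1, Ptgs2 and Hpgd, 7 of the 31053 genes counted. UMIs (unique molecular identifiers, each marking 1 captured transcript) were summed over the cells that the authors kept, per cell type name and library. Of 15234 kept cells, 638 (4.19%) carried the name TUFT, and the other 11 types together are called NON-TUFT below.

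The libraries were 10x Genomics 3' libraries of sorted cells in which Cre recombinase had switched on the red fluorescent TOM reporter. The WT mice were Atoh1CreER-T2;R26RTom. The APC-KO mice carried floxed Apc alleles as well and are labelled Atoh1Cre;Apcfl/fl;R26RTom, while the text of the series names Atoh1CreER-T2 for both. Both genotypes therefore carried the Cre driver and the reporter, and both received tamoxifen at 1 mg/mL in 2 doses given 24 h apart, with tissue taken 12 h after the last. Atoh1 is the transcription factor of the secretory lineage, so the driver and the sort set which cells entered. The sources used here do not give the age of the mice or say whether replicates came from separate animals, so p-values measure the spread between libraries only.

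Each genotype had 2 libraries. The kept cells numbered 4814 and 3821 in WT replicates 1 and 2, and 356 and 6243 in APC-KO replicates 1 and 2. TUFT cells numbered 231, 123, 8 and 276 in the same order, with between 52826 and 878786 UMIs in all. APC-KO replicate 1 thus held only 8 TUFT cells, and the fold changes of the genes followed are given in TUFT cells with and without it. Between 1 and 8 cell barcodes were shared by any pair of libraries, and none was named TUFT in both. The deleted stretch of Apc cannot be read from 3' tags, so the level of Apc itself checks nothing here. Levels are UMIs per 1000000 UMIs of the same sum (CPM). Counting takes 1 tag at the 3' end of each transcript, so no length correction was applied.

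Eicosanoids are signalling lipids made from arachidonic acid, which phospholipases release from membranes. Cyclooxygenases (Ptgs1 and Ptgs2) turn it into prostaglandin H2, from which the haematopoietic prostaglandin D synthase (Hpgds) makes prostaglandin D2. 5-lipoxygenase (Alox5), with its activating protein (Alox5ap), makes leukotriene A4, which leukotriene C4 synthase (Ltc4s) joins to glutathione to give the cysteinyl leukotrienes. 15-hydroxyprostaglandin dehydrogenase (Hpgd) inactivates prostaglandins. Tuft cells, the rare chemosensory cells of the gut epithelium, are a known source of cysteinyl leukotrienes and prostaglandin D2.

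The genes lie on 6 chromosomes in GRCm38, and all 7 are annotated as protein coding. Alox5 is at chr6:116410077-116461178 and Hpgds at chr6:65117293-65144908, both on the minus strand. Alox5ap is at chr5:149264767-149288153 on the plus strand and Ltc4s at chr11:50236461-50238616 on the minus strand. Ptgs1 is at chr2:36230426-36252272, Ptgs2 at chr1:150100031-150108227 and Hpgd at chr8:56294585-56321043, all on the plus strand. Alox5ap and Ltc4s overlap antisense genes (Gm19719 and Gm26542), Hpgds overlaps a pseudogene on the opposite strand (Gm17147), and Ptgs1 and Hpgd overlap the unconfirmed models Gm43621 and Gm45540. The strand setting of the counting is not given in the sources used here, so reads of such partners could not be told apart.

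Promoters are shown for Alox5 and Ptgs1, genes with a high level in TUFT cells, and for Hpgd, which was not high there. RefSeq held a start site for 6 of the 7 genes (build GRCm38.p6), all except Alox5ap. The 250 bases before each start site were searched on both strands for the octamer bound by POU factors (ATGCAAAT), the TATA box (TATAAA), the GC box (GGGCGG) and the E-box (CACGTG). No motif overlapped another. Capitals mark the matches, and each sequence reads 5' to 3' along its gene. The windows shown are chr6:116461179-116461428 (minus strand), chr2:36230176-36230425 (plus) and chr8:56294302-56294551 (plus). For Hpgds and Ltc4s the RefSeq start site lay inside the gene given above, so that 178 and 84 bases of their windows were gene sequence, and these were searched but are not printed.
Alox5: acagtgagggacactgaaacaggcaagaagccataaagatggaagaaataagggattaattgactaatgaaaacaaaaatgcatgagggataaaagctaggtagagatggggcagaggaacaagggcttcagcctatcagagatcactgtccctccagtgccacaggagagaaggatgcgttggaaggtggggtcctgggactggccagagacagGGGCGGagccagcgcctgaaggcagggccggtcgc
Ptgs1: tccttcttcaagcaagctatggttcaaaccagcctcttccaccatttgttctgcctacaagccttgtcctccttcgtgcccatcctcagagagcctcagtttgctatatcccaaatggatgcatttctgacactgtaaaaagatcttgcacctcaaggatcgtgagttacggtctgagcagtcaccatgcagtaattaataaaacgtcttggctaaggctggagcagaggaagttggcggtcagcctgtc
Hpgd: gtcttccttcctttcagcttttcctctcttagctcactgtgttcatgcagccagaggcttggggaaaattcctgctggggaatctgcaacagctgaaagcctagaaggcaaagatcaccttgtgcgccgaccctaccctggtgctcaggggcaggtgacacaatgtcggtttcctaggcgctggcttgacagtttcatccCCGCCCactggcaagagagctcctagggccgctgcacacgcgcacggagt
The octamer stood in the Hpgds window, starting at position -174 (position -1 being the last base before the RefSeq start site), and in 1.60% of 32851 RefSeq promoters; it lay inside the gene given above, at chr6:65144897-65144904, not before its start. The GC box stood in Alox5 from position -35 and, on the other strand, in Hpgd from position -50; 32.7% of promoters held one. Ptgs2, not printed, also held a GC box, from position -170. No TATA box (12.4% of promoters) and no E-box (6.02%) was found in the 6 windows, and none of the 4 motifs in those of Ltc4s and Ptgs1. A match is a description of letters, and no binding was measured.

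Tuft cell markers were counted in the cells named TUFT as a description, since the names may rest on the same expression values. Of 14 tuft cell markers (Dclk1, Trpm5, Pou2f3 and others, Alox5ap left out), all 14 were higher in TUFT than in NON-TUFT cells, and their summed level in TUFT cells ranged over the libraries from 4562 to 7642 CPM, against 25.0 CPM in NON-TUFT cells. TUFT cells with under 5 UMIs of these markers numbered 9 and 3 in WT replicates 1 and 2, and 0 and 27 in APC-KO replicates 1 and 2. The goblet markers in TUFT cells, highest in APC-KO replicate 2, are given with the genotypes below. Blood cells also make eicosanoids, so their markers were counted in TUFT cells. Of 8 mast cell and basophil markers, 7 (Cpa3, Fcer1a, Ms4a2, Tpsb2, Mcpt1, Cma1 and Hdc) had 0 UMIs, and the list had 2 UMIs in all. The 4 neutrophil markers had 0 UMIs. The 8 macrophage and monocyte markers summed to 52 UMIs, with Csf1r, C1qa and C1qb at 0. Of the 8, 4 were higher in TUFT than in NON-TUFT cells. In replicates 1 and 2 the list was at 10.2 and 7.07 CPM (WT) and 0 and 45.2 CPM (APC-KO). Its level in NON-TUFT cells was 13.3 CPM. Lyz2 had 22 UMIs in APC-KO replicate 2 (25.5 CPM, against 0.475 in NON-TUFT cells) and 0 in the other libraries. The lymphoid list had 5 UMIs.

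Of the 7 genes, 5 had most of their UMIs in TUFT cells, and Ptgs2, with 7 UMIs in all, was too low to place. How the authors named the cells is not given, and the names may come from the same expression values, so these levels are a description with no test. All intervals below are 95% exact intervals and cover counting error only. Across the 12 types, Alox5ap had 1680 of its 1786 UMIs in TUFT cells (94.1%), Ptgs1 314 of 344 (91.3%), Alox5 191 of 215 (88.8%), Ltc4s 1027 of 1178 (87.2%) and Hpgds 1027 of 1306 (78.6%), although TUFT cells held only 3.11% of all UMIs. Hpgd stood the other way, with 94 of 6857 UMIs (1.37%) in TUFT cells. Ptgs2, the inducible cyclooxygenase, was nearly absent, with 4 UMIs in TUFT and 3 in EC cells.

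In the leukotriene branch, the level of Alox5 in TUFT cells was 97.9 CPM in WT replicate 1, 98.9 in WT replicate 2 and 56.8 in APC-KO replicate 2, with 0 UMIs among the 8 cells of APC-KO replicate 1. For a sum that small, a count of 0 allows a level of up to 56.8 CPM (3 UMIs). In NON-TUFT cells the pooled level was 0.326 CPM, so the ratio was 248 (162 to 397). The level of Alox5ap was 770 and 984 CPM (WT) against 663 and 476 CPM (APC-KO), replicates 1 and 2 in that order, as in all such pairs below. Its ratio to NON-TUFT cells, 494 (406 to 607), was the highest of the 7 genes. Ltc4s was at 517 and 532 CPM (WT) against 416 and 290 CPM (APC-KO), with a ratio of 212 (179 to 253).

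In the prostaglandin branch, Hpgds was at 461 and 512 CPM (WT) against 473 and 356 CPM (APC-KO) in TUFT cells. Its ratio was 115 (100 to 132), the lowest of the 5 TUFT-high genes. Ptgs1, the constitutive cyclooxygenase, was at 145 and 228 CPM (WT) against 75.7 (4 UMIs) and 62.6 CPM (APC-KO), with a ratio of 326 (224 to 492). The 2 WT libraries were thus the highest in Alox5, Alox5ap, Ltc4s and Ptgs1, while the groups overlapped in Hpgds. Of the 7695 genes compared between genotypes in TUFT cells below, 28.5% likewise had both WT libraries above both APC-KO libraries. In APC-KO replicate 1 the intervals of Alox5ap (461 to 921 CPM), Ltc4s (261 to 631) and Ptgs1 (20.6 to 194) reached WT levels. That of Alox5 did not. Over the 14025 genes with at least 20 UMIs, the median ratio of TUFT to NON-TUFT cells was 1.18, and 4.40% were over 4.

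**Figure D1:**
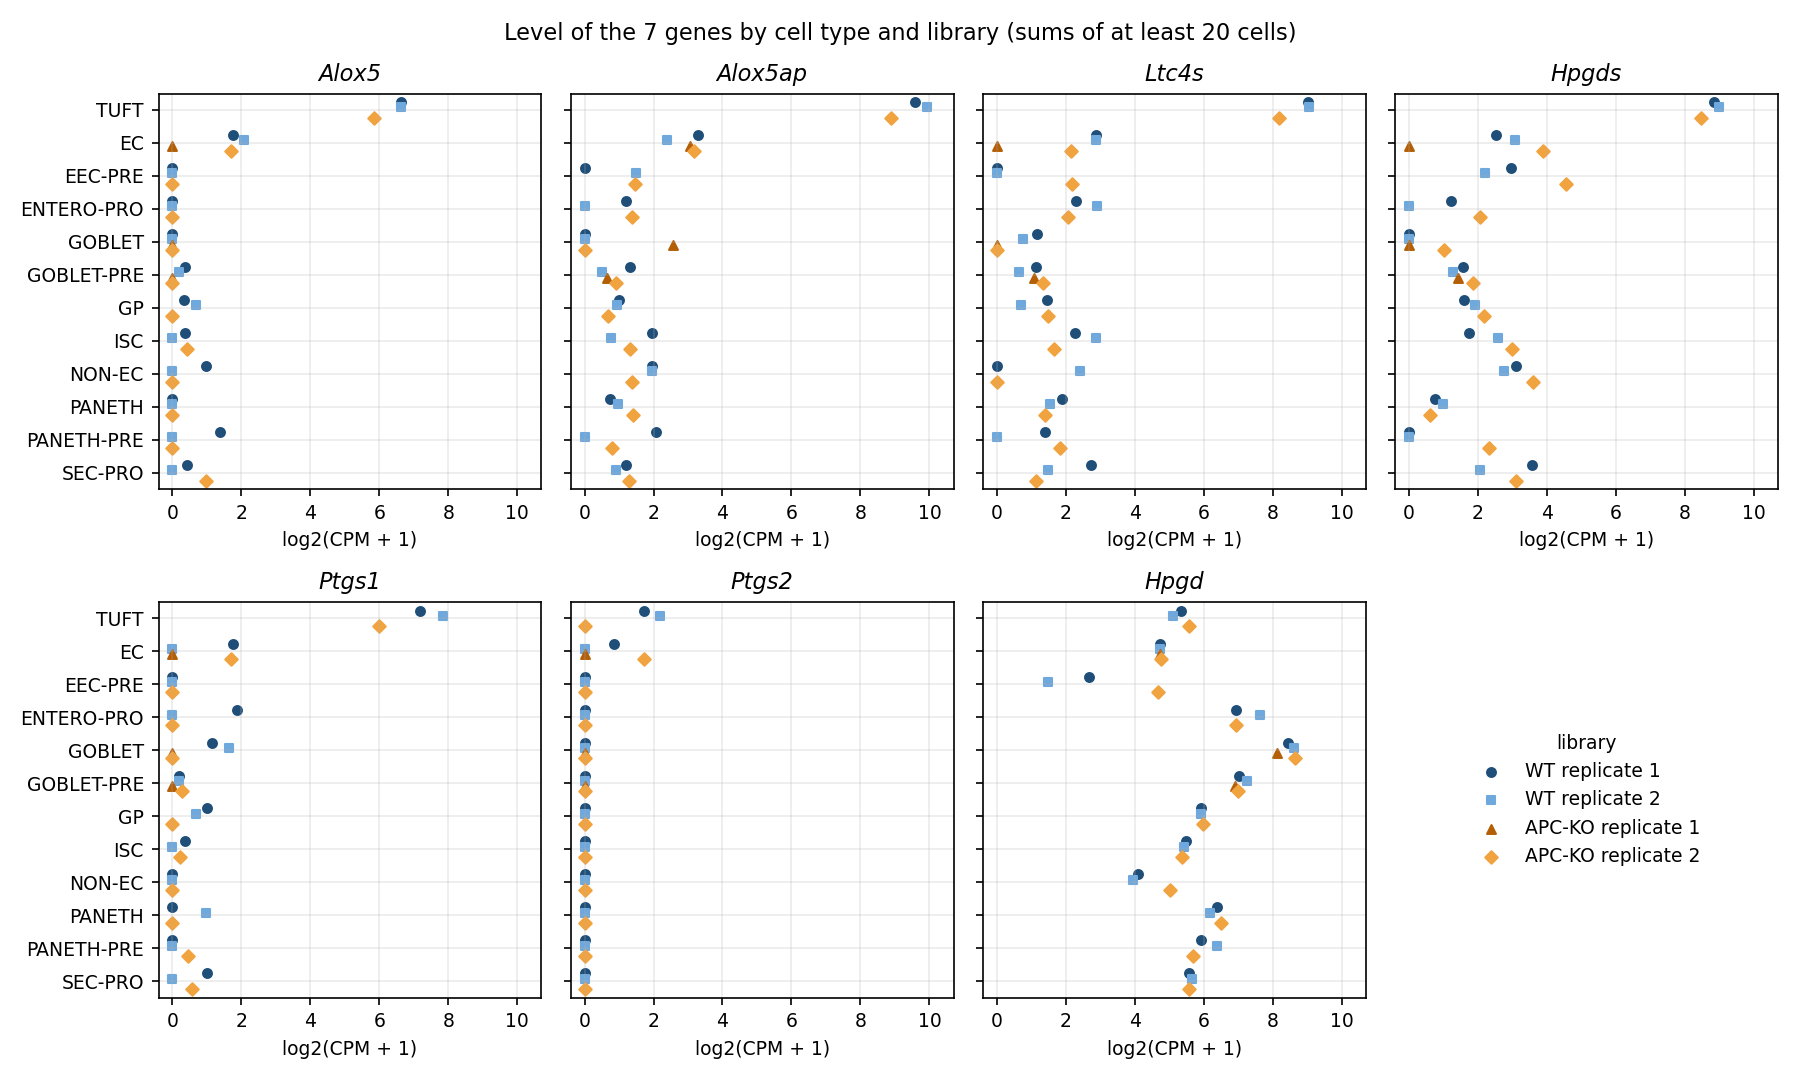
Level of each of the 7 genes as log2(CPM + 1) on the x axis, by cell type on the y axis; each point is the sum over the cells of 1 library, drawn where it had at least 20 cells, so the 8 TUFT cells of APC-KO replicate 1 are not shown. For Alox5, Alox5ap, Ltc4s, Hpgds and Ptgs1 every TUFT point lies right of every other point, Ptgs2 is at or near 0 throughout, and Hpgd is highest in GOBLET.

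The next highest type was far below TUFT for each of these 5 genes. By pooled level it was EC for Alox5 (2.40 CPM, from 8 UMIs), Alox5ap (7.19), Ltc4s (5.09) and Ptgs1 (1.50, from 5 UMIs), and EEC-PRE for Hpgds (10.1). With types ordered by the mean over libraries with at least 20 cells, TUFT came first for all 5. Below TUFT the ranges of neighbouring types overlapped throughout for Alox5, Ltc4s, Hpgds and Ptgs1, so their order there is not resolved. For Alox5ap only EC against NON-EC stood apart as well. Hpgds reached the highest level of the 5 outside TUFT cells. In EEC-PRE cells it was at 6.73 and 3.60 CPM (WT) and at 22.7 CPM in APC-KO replicate 2 (0 UMIs in the 15 cells of replicate 1), and it ranged from 3.15 to 10.9 CPM in SEC-PRO against 0.542 to 0.966 CPM in PANETH cells.

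Part of the low signal outside TUFT cells sat in cells that also held tuft markers. Among 14596 NON-TUFT cells, 110 (0.754%) had at least 3 UMIs of the 14 tuft markers, and they held 178 of the 590 UMIs (30.2%) of the 5 genes. In EC, 16 such cells held 39 of 79 UMIs, including all 8 of Alox5. The UMIs in NON-TUFT cells with fewer tuft marker UMIs were 231 of 279 for Hpgds, 66 of 106 for Alox5ap, 94 of 151 for Ltc4s, 14 of 30 for Ptgs1 and 7 of 24 for Alox5. In those cells Hpgds was at 3.17 CPM over all types and at 9.57 CPM in EEC-PRE. Doublets were not called, and the part of mixed droplets in these values was not tested. Barcodes with 1 to 50 UMIs, which hold free RNA, carried Alox5 at 4.26, Alox5ap at 12.2, Ltc4s at 13.3, Hpgds at 8.87 and Ptgs1 at 5.50 CPM. The NON-TUFT levels of these 5 genes were below those values, and the part of free RNA in them was not tested.

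Hpgd was highest in GOBLET cells, at 345 and 391 CPM (WT) and 279 and 401 CPM (APC-KO). ENTERO-PRO (mean 147 ± 43.7 CPM, SD, n = 3) and GOBLET-PRE (132 ± 14.4, n = 4) followed and overlapped each other. PANETH (81.6 ± 9.36, n = 3), PANETH-PRE (64.5 ± 16.1), GP (60.9 ± 1.39), SEC-PRO (47.6 ± 1.64), ISC (42.2 ± 1.47), TUFT (39.9 ± 6.39), EC (25.8 ± 0.295, n = 4), NON-EC (20.8 ± 9.49) and EEC-PRE (10.6 ± 12.2) came next. Of the 11 neighbouring pairs in this order, 5 did not overlap: GOBLET over ENTERO-PRO, GOBLET-PRE over PANETH, GP over SEC-PRO, SEC-PRO over ISC, and TUFT over EC. In TUFT cells Hpgd had 39.8 and 33.6 CPM in WT, 0 UMIs in APC-KO replicate 1 and 46.4 CPM in APC-KO replicate 2. Its pooled ratio of TUFT to NON-TUFT cells was 0.433 (0.350 to 0.531). TUFT cells overlapped ISC, and EC, NON-EC and EEC-PRE were lower still.

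Within TUFT cells the 5 genes were found in different shares of cells. At least 1 UMI was seen for Hpgds in 73.5% of the 638 cells (69.9% to 76.9%, exact binomial), for Alox5ap in 69.6%, for Ltc4s in 66.1%, for Ptgs1 in 25.9% and for Alox5 in 20.5%. Hpgd was seen in 11.3% and Ptgs2 in 4 cells. Any of the 5 was seen in 610 cells (95.6%), against 3.14% of NON-TUFT cells. The median depth was 3451 UMIs per TUFT and 4665 per NON-TUFT cell, so greater depth did not go with the higher share. GOBLET cells, at a median of 4337 UMIs, held Alox5 in 0 of 717 cells, which allows a share with a UMI of up to 0.418% and sets no limit on cells expressing the gene, Hpgds in 0.139% and Ptgs1 in 0.558%. Thinned to 2000 UMIs per cell, which left 572 TUFT and 14149 NON-TUFT cells, any of the 5 was seen in 88.6% and 1.53%. Of the thinned TUFT cells, 58.4% had a UMI of Hpgds, 57.3% of Alox5ap, 50.5% of Ltc4s, 18.2% of Ptgs1 and 6.29% of Hpgd, and 63 cells had one of Alox5. The number of the 5 genes seen per TUFT cell was 0 in 28 cells, 1 in 100, 2 in 186, 3 in 175, 4 in 111 and all 5 in 38.

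The 5 genes also differed in how they varied with tuft identity. TUFT cells thinned to 2000 UMIs were split into low, middle and high groups of about equal size by their UMIs of the 14 tuft markers (0 to 8, 9 to 16 and 17 to 42 UMIs, with 197, 191 and 184 cells), a split chosen after values had been seen and given with no test. Alox5ap went from 244 to 720 and 1071 CPM, a ratio of the high to the low group of 4.39 (3.51 to 5.55). The ratio was 3.94 and 5.46 in WT replicates 1 and 2 and 3.64 in APC-KO replicate 2. Alox5 had 3 UMIs in the low group (7.61 CPM) and 55.0 and 133 CPM above it. Ltc4s had a ratio of 2.40 (1.90 to 3.05), with 1.96, 2.06 and 2.83 in the same 3 libraries. Ptgs1 had a ratio of 2.64 (1.71 to 4.18), made of 1.44 and 1.91 in the WT libraries and 5.52 in APC-KO replicate 2, which held 103 of the 197 cells of the low group. Hpgds had 386, 490 and 538 CPM and a ratio of 1.39 (1.12 to 1.73), with 1.25, 1.00 and 1.72 in the same 3 libraries. Hpgds was thus already high in the cells with few tuft marker UMIs, and its ratio was below those of Alox5ap and Ltc4s in each of the 3 libraries. Its pooled interval, which covers counting error only and mixes the libraries, also lay below theirs.

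**Figure D2:**
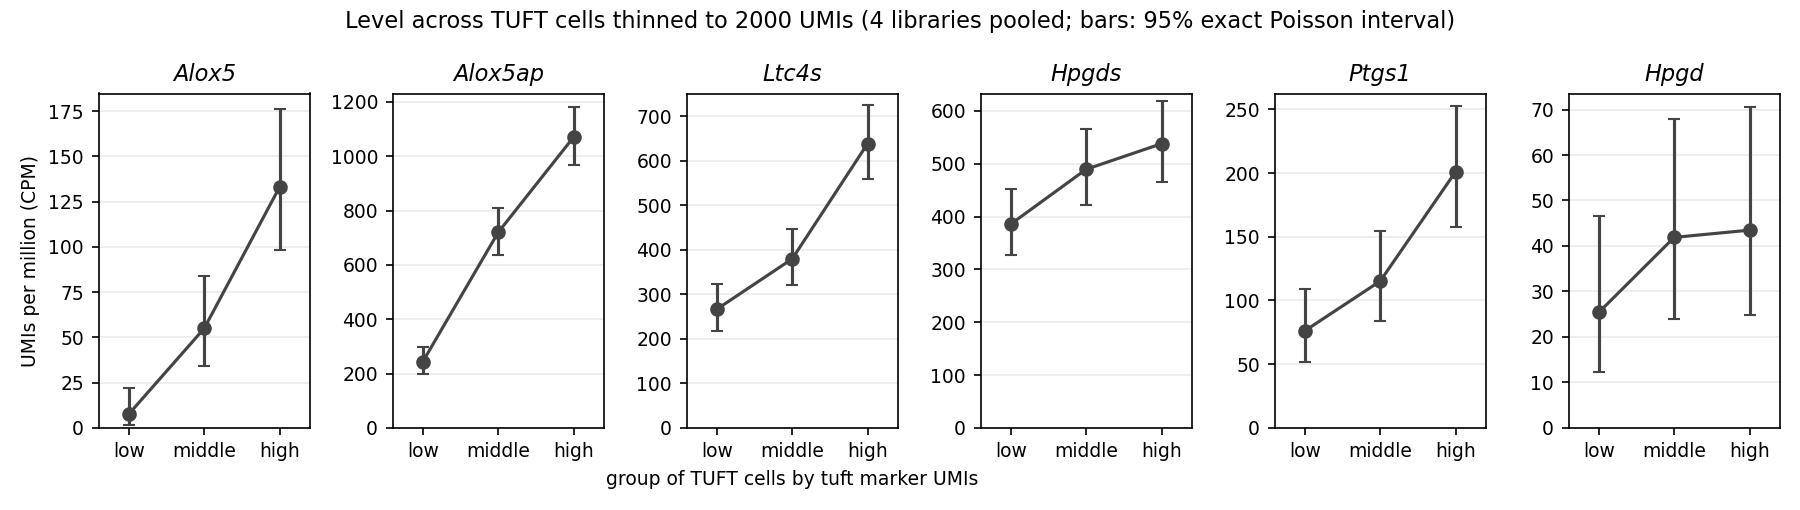
CPM (y axis, from 0) of 6 genes in TUFT cells thinned to 2000 UMIs, in the low, middle and high group by tuft marker UMIs (x axis); points are sums over the 4 libraries and bars are 95% exact Poisson intervals. Alox5ap climbs from 244 to 1071 CPM, whereas Hpgds spans 386 to 538 CPM and the Hpgd intervals overlap.

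Genes with the most similar pattern were sought by Pearson r of log2(CPM + 1) over the 39 sums of a type and library with at least 20 cells, among 12655 genes. These sums share libraries, and for the TUFT-high genes r rests on the 3 TUFT sums, so it is a description. The closest to Alox5 were Nebl (r = 0.96), Ccdc129 and Cldn14. For Alox5ap they were Alox5 (0.95), Pygl and Pik3r5, and for Ltc4s they were Rgs13 (0.95), Pik3cg and 1810046K07Rik. For Hpgds they were Il17rb (0.92), the receptor subunit for IL-25, then Gng13 and Gm26778. For Ptgs1 they were Gfi1b (0.96), a transcription factor of tuft cells, Pate4 and Sh2d7. Hpgd was closest to Nr3c2 (0.91), which encodes the mineralocorticoid receptor, Casp4 and Ifi27l2b. Between the 5 TUFT-high genes r was between 0.80 (Hpgds and Ptgs1) and 0.95 (Alox5 and Alox5ap).

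Next, the genotypes were compared in TUFT cells, with edgeR's quasi-likelihood test on the sums of the 4 libraries and Benjamini-Hochberg adjustment over all genes tested. None of the 6 genes tested passed 0.05 (Ptgs2 was too low to be tested), and 2 had an unadjusted p under 0.05 in edgeR and 1 in DESeq2. Over all 7695 genes, 13 passed (0.169%), and 811 had an unadjusted p under 0.05 in edgeR and 75 in DESeq2. The number of calls rested on single libraries: it was 388 without APC-KO replicate 1, and 0 without WT replicate 1 or without APC-KO replicate 2.

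Ptgs1 had the largest difference of the 6 genes. From 145 and 228 CPM (WT) and 75.7 and 62.6 CPM (APC-KO), the fit gave a log2 fold change of -1.38 ± 0.31 (SE), with an edgeR adjusted p of 0.0724. Without APC-KO replicate 1 it was -1.41 and passed (edgeR adjusted p = 5.6e-05), as it did with no filter on low counts (edgeR adjusted p = 0.00101). Over all alternatives it stayed between -1.08 and -1.68, with adjusted p-values from 5.6e-05 to 0.99993, the last by the DESeq2 Wald test (-1.36). Within the groups by tuft markers, Ptgs1 had 123, 130 and 177 CPM in WT replicate 1, 136, 224 and 260 in WT replicate 2, and 34.0, 47.9 and 188 in APC-KO replicate 2. The low and middle groups of APC-KO replicate 2, of 7 UMIs each, were below both WT libraries, and its high group lay between them. The share of TUFT cells with a UMI of Ptgs1 was 32.0% and 44.7% in WT, 2 of 8 cells in APC-KO replicate 1 and 12.3% in APC-KO replicate 2. Thinned to 2000 UMIs per cell it was 21.6% and 28.6% in WT, 0 of 8 cells and 10.3%.

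The other TUFT-high genes had smaller differences. The log2 fold change was -0.78 ± 0.33 for Alox5 (edgeR adjusted p = 0.432), -0.59 ± 0.29 for Alox5ap (0.508), -0.58 ± 0.28 for Ltc4s (0.484) and -0.21 ± 0.27 for Hpgds (0.863). For Hpgd it was 0.32 ± 0.40 (0.853). Without APC-KO replicate 1 the log2 fold changes were -0.66 for Alox5, -0.74 for Alox5ap, -0.72 for Ltc4s, -0.32 for Hpgds and 0.44 for Hpgd. In 4 of the 6 genes (Alox5, Alox5ap, Ltc4s and Ptgs1) the CPM of the genotypes did not overlap, with APC-KO lower each time; that held for 28.5% of all genes tested, and 39.7% did not overlap in either direction. The median of the 6 genes was -0.58, against -0.02 over all genes.

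**Figure D3:**
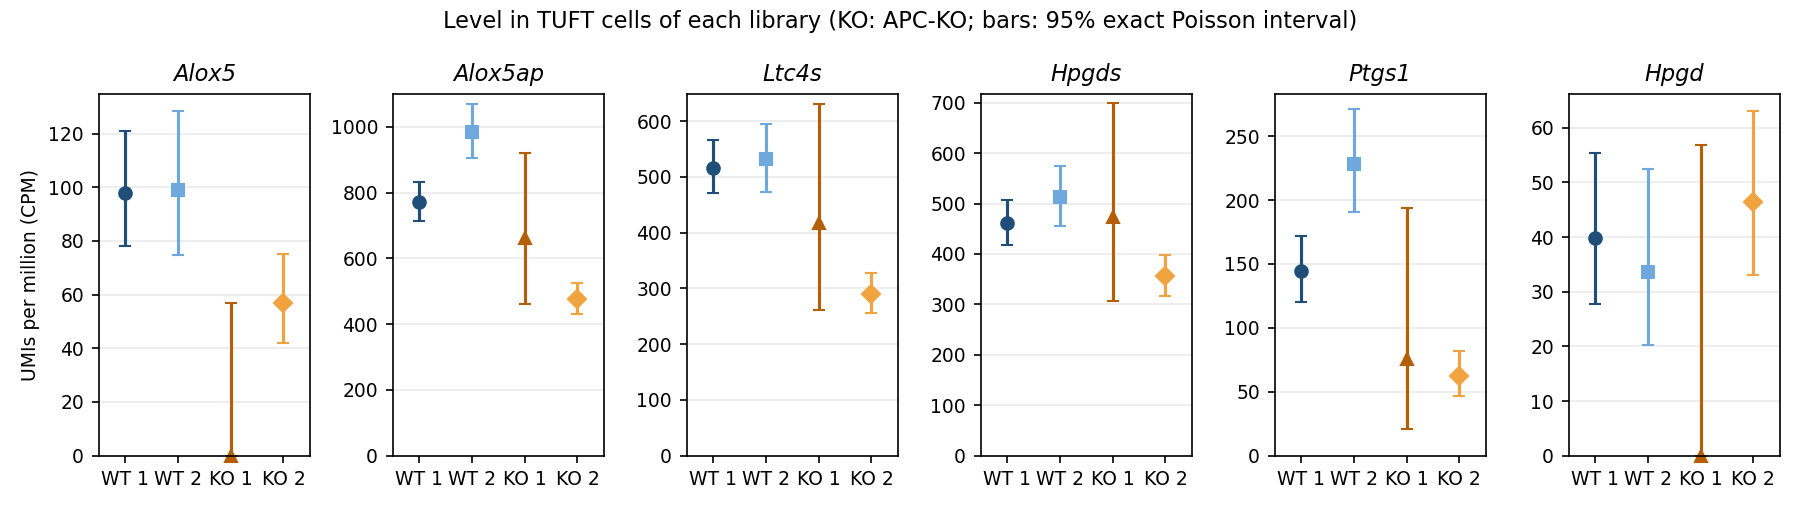
CPM (y axis, from 0) of 6 genes in the TUFT cells of each library (x axis: WT replicates 1 and 2, APC-KO replicates 1 and 2); bars are 95% exact Poisson intervals or, at 0 UMIs, end at the level of 3 UMIs. Ptgs1 is at 145 and 228 CPM in the WT libraries and at 75.7 and 62.6 CPM in the others, and the wide bars of APC-KO replicate 1 come from 8 cells.

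The summed tuft markers were lower in both APC-KO libraries, whereas the goblet markers and the depth of TUFT cells put the 2 APC-KO libraries on either side of WT. The 14 tuft markers summed to 7152 and 7642 CPM (WT) against 4562 and 5400 CPM (APC-KO), and 11 of the 12 tested were lower in APC-KO (median log2 fold change -0.43, none past the edgeR threshold, 3 at an unadjusted p under 0.05, and 0 called by DESeq2). The 6 goblet markers, Muc2 among them, summed to 3965 and 3195 CPM (WT) against 1912 and 22264 CPM (APC-KO). All 6 had a fold change above 0 in the 4 libraries (median log2 1.93, none past the edgeR threshold, 5 at an unadjusted p under 0.05, and 0 called by DESeq2) and below 0 without APC-KO replicate 2 (median -0.85). Without APC-KO replicate 1 the median was 2.60 for the goblet markers and -0.24 for the 13 tuft markers then tested. Of all 7695 genes tested in the 4 libraries, 811 had an unadjusted p under 0.05 in edgeR. Cells with at least 50 goblet marker UMIs numbered 8 and 3 in WT and 0 and 37 in APC-KO. Without them, an alternative chosen after seeing the data, Ptgs1 differed by -1.17 (edgeR adjusted p = 0.158). Per 100 tuft marker UMIs, Ptgs1 had 2.02 and 2.98 UMIs in WT and 1.66 and 1.16 in APC-KO, and Alox5 1.37 and 1.29 against 0 and 1.05. These were the 2 of the 6 genes whose groups did not overlap on this scale, both lower in APC-KO. Of all genes tested 46% did not overlap, and 5.68% did so with APC-KO lower. In APC-KO replicate 1 the values rested on 4 UMIs of Ptgs1 and 0 of Alox5, beside 241 tuft marker UMIs. Counts that low do not resolve whether the groups differed on this scale. Hpgds had 6.44 and 6.71 against 10.4 and 6.59, and Alox5ap 10.8 and 12.9 against 14.5 and 8.82. The median TUFT cell held 3879 and 4643 UMIs in WT and 6935 and 2676 in APC-KO. The part of these differences in the values of the 6 genes was not otherwise tested.

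Outside TUFT cells none of the 7 genes was called. In NON-TUFT cells edgeR called 0 of 13251 genes (0%; 463 at an unadjusted p under 0.05, and 22 called by DESeq2). Of the genes followed, 4 were tested, with log2 fold changes of 0.05 ± 0.52 for Alox5ap, -0.42 ± 0.47 for Ltc4s, 0.49 ± 0.55 for Hpgds and 0.06 ± 0.28 for Hpgd. Hpgd was also tested in EC (0.08 ± 0.33), GOBLET (-0.24 ± 0.29) and GOBLET-PRE cells (-0.08 ± 0.15), and Hpgds in GOBLET-PRE cells (0.56 ± 0.51), where edgeR called 0%, 0.0837% and 0.00974% of genes. Without APC-KO replicate 1 edgeR called 52 genes in NON-TUFT, 405 in EC, 47 in GOBLET-PRE and 21 in GOBLET cells, and without APC-KO replicate 2 it called 5, 102, 7 and 0; without WT replicate 1 it called 20 in GOBLET and 64 in GOBLET-PRE cells, and without WT replicate 2, 22 in GOBLET-PRE cells. None of the 7 genes passed there, in the 4 libraries or in any of these, and in the 4 libraries none had an unadjusted p under 0.05 in edgeR or DESeq2. In GOBLET cells, where its level was highest, the CPM of Hpgd overlapped between the groups.

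Over all kept cells, Ptgs1 differed by -1.58 ± 0.32, Alox5ap by -0.84 ± 0.17, Ltc4s by -0.84 ± 0.23, Alox5 by -1.12 ± 0.73, Hpgds by -0.32 ± 0.26 and Hpgd by 0.07 ± 0.27. None passed in edgeR, where 0 of 13345 genes did (0%), and DESeq2 called 23 genes. An unadjusted p under 0.05 was seen for 3 of these 6 genes and 495 of all genes in edgeR. In DESeq2 it was seen for 3 of the 6 and 323 of all genes. Without APC-KO replicate 1, which left 1 APC-KO library, the log2 fold change over all kept cells was -1.44 for Ptgs1 and -0.77 for Alox5ap. These sums also move with the number of TUFT cells, whose share of kept cells was 4.80% and 3.22% in WT and 2.25% and 4.42% in APC-KO. The difference in mean share, APC-KO minus WT, was -0.67 percentage points (two-sided exact permutation p = 0.667, where 0.333 is the smallest that 2 against 2 libraries allow), and it was 0.41 without APC-KO replicate 1 and 0.12 without WT replicate 1.

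**Figure D4:**
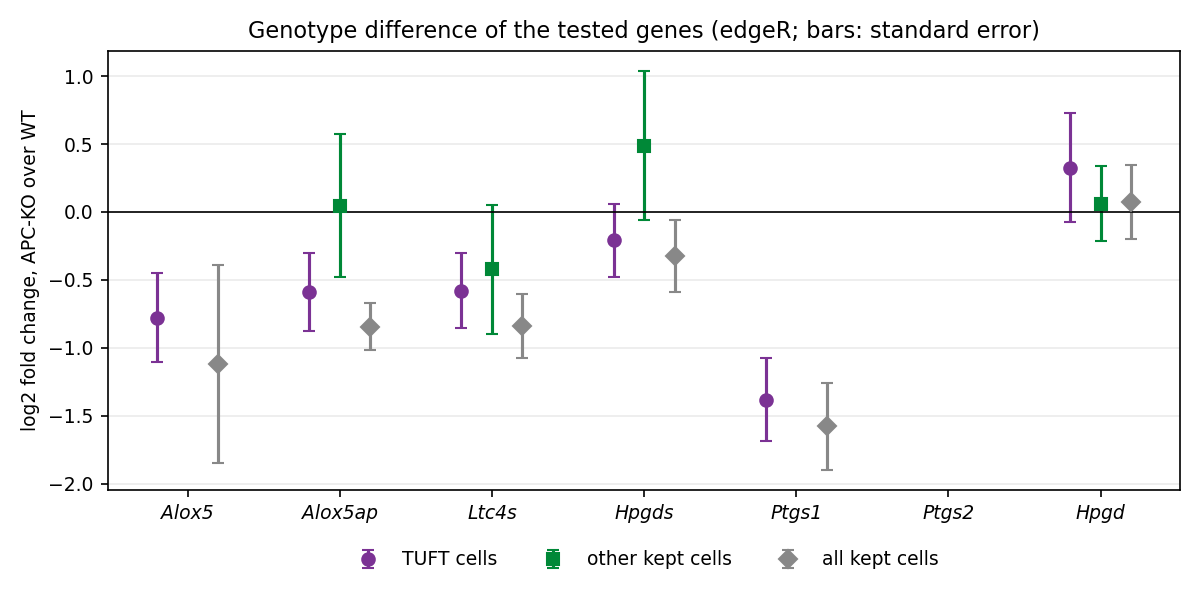
Log2 fold change of APC-KO over WT (y axis) for each gene tested (x axis) in TUFT cells, other kept cells and all kept cells; points are edgeR estimates from 2 libraries per genotype and bars are standard errors. Ptgs1 is lowest, at -1.38 in TUFT cells and -1.58 over all cells; genes too low to test, such as Ptgs2, have no point.

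The other genes of the pathway were taken as a list of 56, of which 55 were found by symbol and 35 had at least 20 UMIs in kept cells. Of the 35, 3 had a TUFT to NON-TUFT ratio over 4, where 4.40% of all genes with that many UMIs did. Pla2g4a, the cytosolic phospholipase A2 that releases arachidonic acid, was at 424 and 555 CPM (WT) against 379 and 240 CPM (APC-KO) in TUFT cells, with a ratio of 16.3 (15.0 to 17.6). Mgst3, a microsomal glutathione transferase of the family of Ltc4s, was the most abundant of the list in TUFT cells, with a pooled level of 1609 CPM and a ratio of 6.59 (6.36 to 6.82). Pla2g16, another phospholipase, had a ratio of 4.42 (4.05 to 4.80).

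Of the 35, 12 had a ratio under 0.25, where 11% of all genes with that many UMIs did. They included the secreted phospholipases Pla2g10 (0.0821, 170.7 CPM in GOBLET), Pla2g2f (0.110) and Pla2g5 (0.137), as well as Pla2g7 (0.248, from 1 UMI in TUFT cells). Among enzymes downstream of prostaglandin H2 or leukotriene C4, the inducible prostaglandin E synthase Ptges had 0 UMIs in TUFT cells and 41 elsewhere, Dpep1 0 and 224, and Ggt1 2 and 326, the last 2 being highest in ENTERO-PRO. Alox15 (0 and 29 UMIs), another lipoxygenase, and Ptgr1 (ratio 0.233), an enzyme of prostaglandin breakdown, completed the enzymes. Among receptors, Ptger4 had a ratio of 0.239 and was highest in GOBLET, Ptgdr had 1 UMI in TUFT cells and 36.7 CPM in GOBLET, and Ltb4r1 had 0 and 40 UMIs. The intervals of Pla2g7, Ptges, Alox15 and Ltb4r1 reached above 1, so those 4 were not resolved at this depth. Of 14 receptors, 8 had under 20 UMIs in all kept cells.

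In the remaining roles, the most abundant genes in TUFT cells were Ptges3 (302 CPM, ratio 1.38), the cytosolic prostaglandin E synthase, and Ptgr2 (79.6 CPM, ratio 2.61), a prostaglandin reductase. Ptger4 led the receptors at only 8.90 CPM, and Aloxe3 led the other lipoxygenases with 1 UMI. Between genotypes, 13 genes of the list were tested in TUFT cells and none passed in edgeR, with a median log2 fold change of -0.43. Mgst3 and Pla2g4a, 2 of the 13, had an unadjusted p under 0.05 in edgeR, as did 811 of all 7695 genes tested there. DESeq2 called 0 of the list. Mgst3 was at 2144 and 2200 CPM (WT) against 1609 and 677 CPM (APC-KO), with a log2 fold change of -0.94 ± 0.35 (edgeR adjusted p = 0.353), and Pla2g4a one of -0.71 ± 0.29 (0.406). Without APC-KO replicate 1, which left 1 APC-KO library, the log2 fold changes were -1.55 for Mgst3, -0.89 for Pla2g4a and 1.80 for Ptgr1. In TUFT cells Ptgr1 had 8 and 5 UMIs in WT and 0 and 25 in APC-KO. Its level was highest in GOBLET-PRE cells (91.9 CPM). The part of TUFT cells with at least 50 goblet marker UMIs in its rise was not tested. In NON-TUFT cells 35 genes of the list were tested and none passed in edgeR (3 at an unadjusted p under 0.05, 0 by DESeq2).

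**Figure D5:**
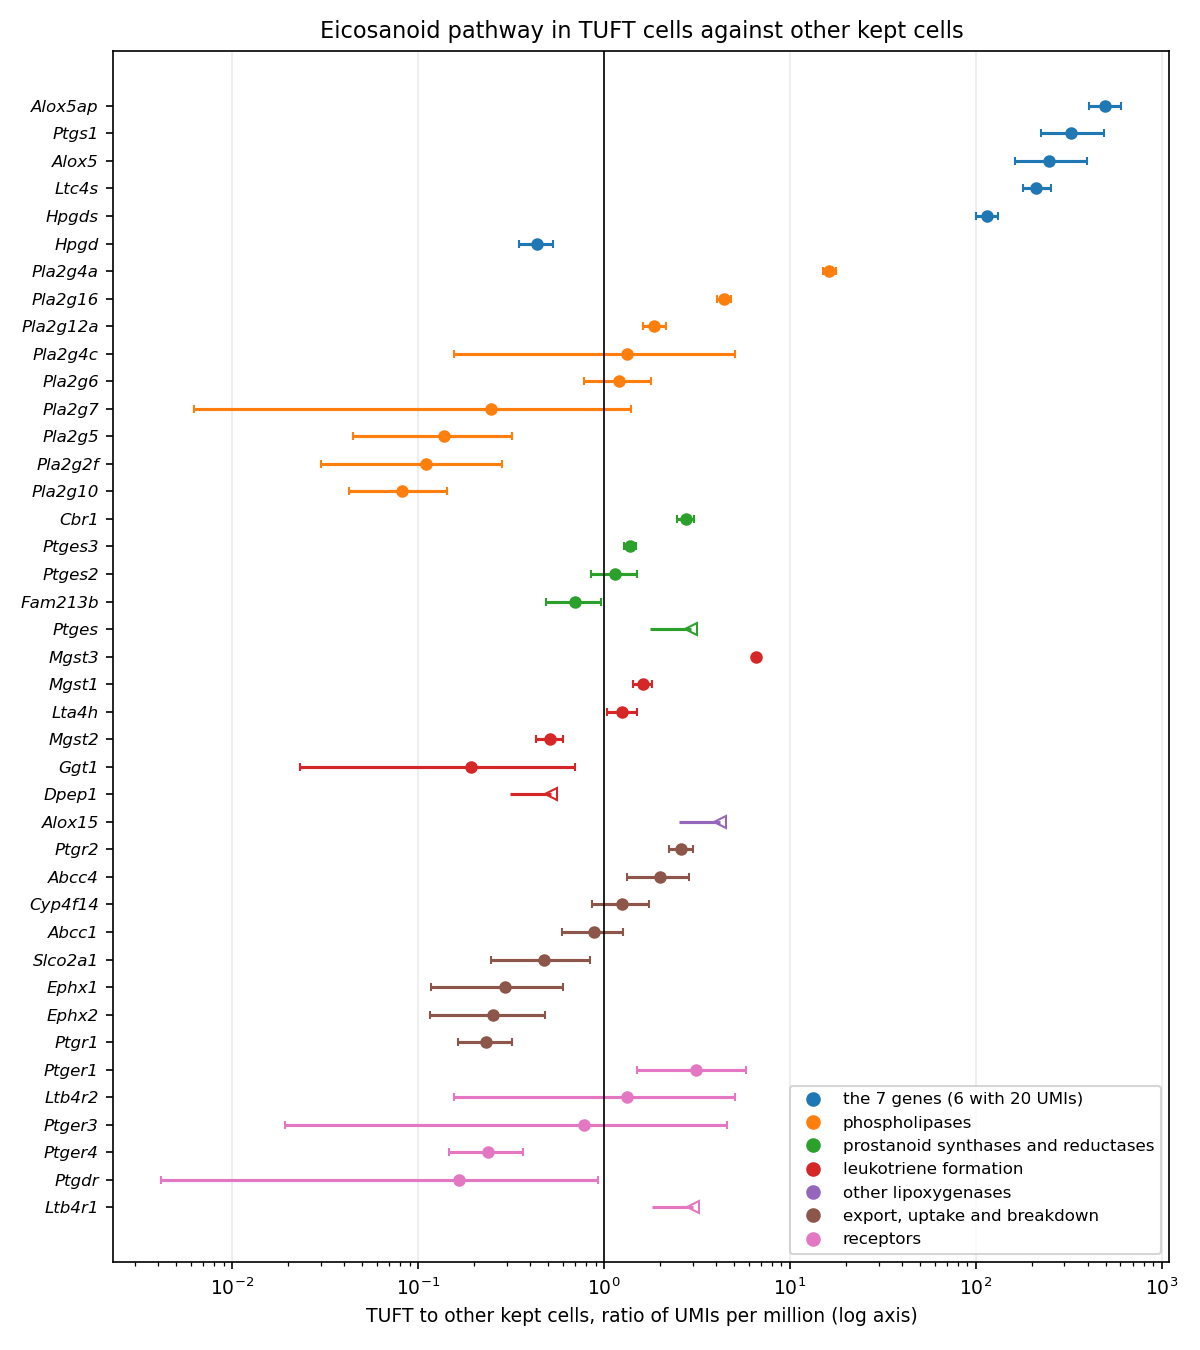
Ratio of CPM in TUFT to NON-TUFT cells (log x axis, 4 libraries pooled) for 6 of the 7 genes and 35 further pathway genes with at least 20 UMIs, coloured by role; bars are 95% exact intervals, and open triangles give the upper end of the interval for genes with 0 UMIs in TUFT cells. Alox5ap, Ptgs1, Alox5, Ltc4s and Hpgds lie between 115 and 494, Pla2g4a follows at 16.3, and Hpgd lies at 0.433.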

How the data were processed

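Unfiltered 10x Genomics gene by barcode matrices and per-cell tables of 4 libraries were used. The matrices deposited by the authors hold UMI counts, made with Cell Ranger 3.0.2 and STAR on mm10 per the submitters' processing notes. In the deposited per-cell tables the authors give each kept cell's UMI and gene counts, its mitochondrial share in percent, and other values (library and 1 of 12 type names). By their values, kept cells had 901 to 2999 genes and a mitochondrial share under 7%. How cells were named and whether doublets were removed are not given in the sources used here, and no doublets were called.

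From these, UMIs were summed per library and type. The genotype comparison used edgeR 4.0.16 under R 4.3.3 (TMM, filterByExpr, quasi-likelihood test, Benjamini-Hochberg adjustment, threshold 0.05) in TUFT, NON-TUFT and all kept cells and in EC, GOBLET and GOBLET-PRE, which had at least 20 cells in each library. On simulated TUFT sums of 7295 genes, 183 of 197 genes changed by 2 on the log2 scale were called, and 8 unchanged ones. That simulation gave all genes 1 common dispersion. Its change was larger than that of any of the genes followed in TUFT cells, so it does not give the power for them. Alternatives were DESeq2 1.42.0 (test or size factors), no filter, cells of at least 2000 UMIs, thinning to 2000 UMIs, leaving out each library, a replicate block, and subtraction of free RNA at 5% with the profile of barcodes with 1 to 50 UMIs.

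Levels in TUFT against other types got no test. Named genes were the 7 genes, pathway genes with a ratio over 4 or under 0.25, those past the threshold or most abundant of a role, and the 3 genes most like each of the 7. The genes, lists and rules were chosen with earlier results of these data known. With a library left out, the lone library of its genotype is assumed to vary like the other genotype. The main fits assumed no pairing by the replicate numbers in the labels, and a block by these numbers is given with the alternatives.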

Additional observations from a re-analysis of the deposited data

Results flagged for a closer look

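Ptgs2 appeared in data that no comparison used. Barcodes with 1 to 50 UMIs, which the authors did not keep, held 21 Ptgs2 UMIs over the 4 libraries, a level of 3.72 CPM (2.31 to 5.69, exact Poisson), against 7 UMIs and 0.0921 CPM in kept cells. APC-KO replicate 1 gave 12 of the 21, and without it the level was 2.39 CPM (1.09 to 4.54) from 9 UMIs, against 0.0959 CPM in kept cells. Alox5 (4.26 against 2.83 CPM) and Ptgs1 (5.50 against 4.53 CPM) were also higher there, but their intervals (2.73 to 6.33 and 3.74 to 7.80) held the kept cell level. APC-KO replicate 1 gave 17 of the 31 Ptgs1 UMIs in these barcodes. Without that library Ptgs1 was lower in them (3.72 against 4.66 CPM), and Alox5 stayed higher (4.78 against 2.95 CPM). Alox5ap, Ltc4s, Hpgds and Hpgd were lower there, Hpgd for example at 61.9 against 90.3 CPM. Which cells those transcripts came from was not tested.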

How the results depend on the processing

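Genes called in TUFT cells numbered 1 by the DESeq2 Wald test, 155 with no filter, 5 in cells with at least 2000 UMIs, 68 after thinning, and, in alternatives added after seeing the data, 4 without goblet-rich cells and 5 without cells low in tuft markers, against 13. Leaving out each library gave 0 to 388 calls in TUFT, 0 to 52 in NON-TUFT, 0 to 483 in all kept, 7 to 64 in GOBLET-PRE, 0 to 21 in GOBLET and 0 to 405 in EC cells. DESeq2 and no filter gave 22 and 12 calls in NON-TUFT, 23 and 21 in all kept and 13 and 174 in EC cells, against 0. They gave 38 and 280 in GOBLET-PRE, against 1, and no filter gave 79 in GOBLET, against 5. Thinning gave 30 calls in EC and 3 each in GOBLET and GOBLET-PRE cells. Replicate differences of same-numbered libraries had correlations from -0.25 to -0.01, and 2 libraries per genotype cannot show whether they were paired. A replicate block gave 2 calls in TUFT, 2 in NON-TUFT, 4 in all kept, 110 in GOBLET-PRE, 73 in GOBLET and 0 in EC cells. The crossed block, added after seeing the data, gave 13 in NON-TUFT and 1 in all kept cells. Under the block none of the 7 genes passed. The pathway count in TUFT cells, 0, was 1 after thinning and 0 to 3 with a library left out. Of 218 alternative fold changes of the 7 genes, 203 kept direction and side of the threshold and 4 passed it: Ptgs1 in TUFT cells with no filter, and, without APC-KO replicate 1, Ptgs1 there and Ptgs1 and Alox5ap over all cells. Another 11 changed sign, none called: Hpgd in TUFT (-0.036, DESeq2), in NON-TUFT (-0.13 without WT replicate 1, -0.24 without APC-KO replicate 1), over all kept (-0.14 and -0.23 likewise), in GOBLET (0.015 without APC-KO replicate 1) and in GOBLET-PRE cells (0.073 thinned), and, in NON-TUFT cells, Alox5ap (-0.39 without WT replicate 2, -0.28 thinned, -0.029 crossed block) and Hpgds (-0.92 without APC-KO replicate 2). With a library left out, Alox5ap in NON-TUFT cells reached 0.73, Hpgds 0.90 and Hpgd 0.36; Hpgd reached 0.37 over all kept and -0.65 in GOBLET cells. The causes were not tested. Without APC-KO replicate 2, Alox5 (TUFT and all kept) and Hpgd (TUFT) had 0 UMIs in the remaining APC-KO library, and no value is given. The difference in the share of TUFT cells ran from -1.76 to 0.41 percentage points with a library left out, changing sign without WT replicate 1 (0.12) and without APC-KO replicate 1 (0.41). The 5 genes with at least 20 UMIs and a ratio over 4 stayed 5 under each alternative tried. Subtracting free RNA raised 4 of the log2 ratios beyond the spread between libraries. They reached 9.88 for Alox5, 9.85 for Alox5ap, 8.27 for Ltc4s and 9.29 for Ptgs1. The share of TUFT cells with any of the 5 genes was 88.6% after thinning, against 95.6%. With 8 TUFT cells, APC-KO replicate 1 limits each genotype value in TUFT cells.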
